A study of Rattus norvegicus with 6 samples.

Results

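The 10 genes described here are 5 genes of the CCN family of secreted matrix proteins (Ccn1, Ccn2, Ccn3, Ccn4 and Ccn5) and 5 further genes known as targets or feedback regulators of the coactivator YAP (Ankrd1, Amotl1, Amotl2, Crim1 and Lats2). They were taken by symbol from the 30945 genes of the count files, each symbol stood on 1 row, and all 10 were among the 13016 genes with enough counts to be tested. The RNA came from primary vascular smooth muscle cells of the rat, the muscle cells of the artery wall, in 3 libraries labelled Negative_control and 3 labelled siRNA_ANK. The labels give no strain, age, dose or time, do not say whether replicates came from separate animals or cultures, and do not describe the control reagent. The p-values therefore measure the spread between these libraries, which may be technical.

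YAP and its relative TAZ are coactivators that enter the nucleus and bind the TEAD transcription factors when cells are stretched, spread or released from contact inhibition. The Hippo kinases, ending in LATS1 and LATS2, hold them in the cytoplasm, and the angiomotins bind and retain them there. Several genes that YAP turns on encode such inhibitors, so the pathway restrains itself, while others encode CCN proteins, which bind integrins and growth factors in the matrix and act on the migration, growth and matrix production of vascular smooth muscle. RNA counts report transcript levels and not the phosphorylation or location of YAP.

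For 3 of the members the reference holds a TEAD motif close before the start site, and these proximal promoters are shown because the genes hold the highest CCN level, the largest CCN rise and the largest rise among the feedback genes. The sequences are those of RefSeq on build GRCr8 (the count files use mRatBN7.2), give the 250 bases before the annotated start, 5′ to 3′ on the strand of the gene, and carry the motif CATTCC or its reverse complement GGAATG in capitals. Ccn1 lies at chr2:237225690-237225939 on the minus strand, Ccn2 at chr1:22624615-22624864 on the minus strand and Amotl2 at chr8:112182376-112182625 on the plus strand.
Ccn1: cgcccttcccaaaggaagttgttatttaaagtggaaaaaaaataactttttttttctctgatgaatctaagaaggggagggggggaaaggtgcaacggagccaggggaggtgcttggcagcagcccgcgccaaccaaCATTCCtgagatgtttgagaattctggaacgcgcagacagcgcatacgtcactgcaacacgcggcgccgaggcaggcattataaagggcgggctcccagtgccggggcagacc
Ccn2: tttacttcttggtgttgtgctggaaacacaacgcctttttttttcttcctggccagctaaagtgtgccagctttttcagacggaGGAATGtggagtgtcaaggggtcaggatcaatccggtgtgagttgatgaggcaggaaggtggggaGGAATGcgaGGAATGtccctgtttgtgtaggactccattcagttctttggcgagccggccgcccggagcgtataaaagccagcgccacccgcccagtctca
Amotl2: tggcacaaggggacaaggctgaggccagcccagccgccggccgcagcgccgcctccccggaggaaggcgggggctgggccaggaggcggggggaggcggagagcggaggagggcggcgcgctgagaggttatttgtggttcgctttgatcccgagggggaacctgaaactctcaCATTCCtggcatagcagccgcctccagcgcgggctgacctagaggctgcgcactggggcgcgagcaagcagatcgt

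The promoter of Ccn2 held 3 copies of the TEAD motif, all as GGAATG, with their first bases at -166, -101 and -92 from the start. Ccn1 held 1 copy, from -113, and Amotl2 held 1 copy, from -76. Windows of 250 bases before and 50 bases after the start were searched on both strands: CATTCC was found in 14.2% of the 33469 such promoters in the RefSeq table, and 3 or more copies in 0.0956%. Promoters of 5 of the 10 members were in the table. No CATTCC was found in the window of Crim1 or in the 5 windows of Amotl1, which has several annotated starts. The AP-1 motif TGANTCA, searched on both strands and present in 7.33% of the promoters, was found in the 2 upstream windows of Amotl1, which overlap and hold the same copy, and in no window of the other 4 genes. The CArG box, which is bound by SRF and was present in 1.64% of promoters, was found in none of these windows. A match to a motif is a description of the letters and not of binding.

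The label siRNA_ANK was checked against Ankh, which encodes the progressive ankylosis protein ANK. Ankh fell from 352 ± 14.7 to 93.7 ± 22.8 CPM (SD, n = 3), where CPM stands for counts per 1000000 counts after TMM scaling of the libraries. Among the siRNA_ANK libraries Ankh was highest in replicate 3, at 120 CPM against 84.9 and 76.7. Libraries held 15641259 to 17441548 counts. Of 8 smooth muscle markers, all tested, 7 rose, beside 19.9% of all genes tested, with Acta2 and Myh11 present in every library, and their summed level was 2600 to 3610 CPM in the controls and 5150 to 6170 CPM in siRNA_ANK. The endothelial markers Cdh5, Kdr, Tie1 and Emcn and the leukocyte markers Ptprc and Adgre1 had no count in any library. The summed level of the 8 endothelial markers, most of it Egfl7, was 10.8 to 14.3 CPM in controls and 6.47 to 8.29 CPM in siRNA_ANK, and that of the 8 macrophage markers, most of it Cd14, was 24.9 to 28.1 and 11.3 to 14.9 CPM. Of 8 adventitial fibroblast markers 7 were tested and 6 rose, beside the same 19.9%, with summed levels of 118 to 128 and 192 to 204 CPM. How far these shifts bear on the 10 genes was not tested, and with bulk RNA a change in the make-up of the culture and a change in RNA per cell cannot be told apart.

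All 10 genes passed the test between the groups, 8 of them higher in siRNA_ANK and 2 lower. Over all genes tested, 40.1% passed edgeR's quasi-likelihood test at an adjusted p under 0.05, 19.9% higher and 20.2% lower. The 10 genes were chosen with earlier results of these data known, so their count beside this share is a description only. In 9 of the 10 genes the libraries of one group all lay on one side of the other group, as they did for 51.1% of all genes tested. The median log2 fold change was 0.37 over the 10 genes and 0.01 over all genes tested, and the median size of the change was 0.50 and 0.23. Ankrd1, Amotl2 and Ccn1 rose at least 2-fold, as 4.56% of all genes did, whereas Ccn2, Ccn5 and Lats2 rose by less than 1.2-fold. In the test against a fold of 1.2, 4 of the 10 were higher (Ankrd1, Amotl2, Ccn1 and Crim1) and the same 2 were lower (Ccn4 and Amotl1). Of all 13016 genes tested, 1335 were higher and 1142 lower in that test.

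**Figure D1:**
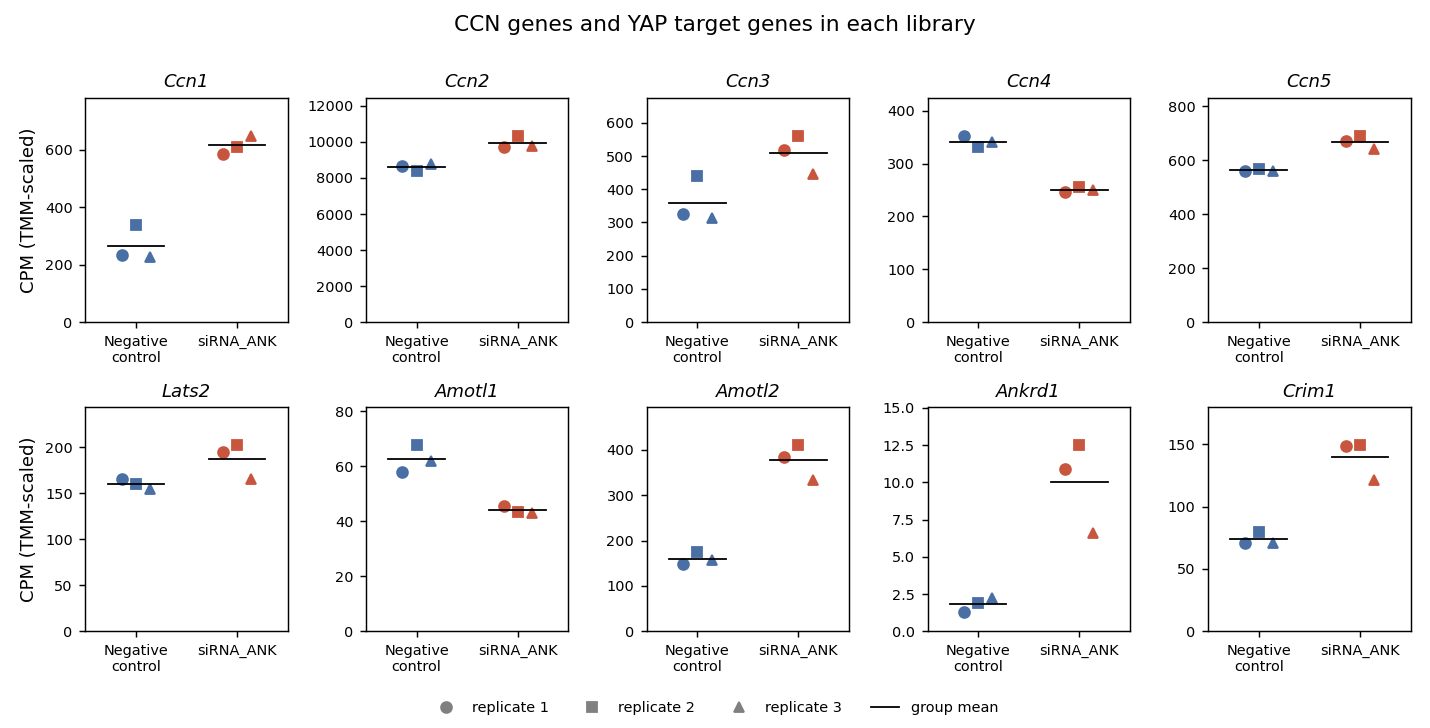
Level of each of the 10 genes in each library, in CPM scaled with TMM factors on linear axes that start at 0; point shapes are the replicate numbers and bars are group means of 3 libraries. Amotl2 sits at 148 to 175 CPM in the controls and at 334 to 411 CPM in siRNA_ANK, Ccn4 and Amotl1 lie lower in siRNA_ANK, and Lats2 overlaps between the groups.

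Among the secreted CCN proteins, Ccn1 had the largest rise. Ccn1 (formerly Cyr61) encodes an integrin-binding matrix protein that is induced quickly by serum and stretch, and its gene lies on chromosome 2 at 234562408 to 234565484 of mRatBN7.2, on the minus strand. Its level was 235, 337 and 227 CPM in control replicates 1, 2 and 3 and 585, 610 and 649 CPM in siRNA_ANK replicates 1, 2 and 3. The siRNA_ANK libraries were close together and all above the controls, of which replicate 2 was the highest. The rise was 2.31-fold (log2 fold change 1.21 ± 0.16 (SE), edgeR adjusted p = 0.00129).

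Ccn2 (formerly Ctgf), the CCN protein most often followed as a mediator of fibrosis downstream of TGF-beta, was by far the most abundant of the 10 genes and changed little. It lies on chromosome 1 at 20802199 to 20805734, minus strand, and measured 8666, 8385 and 8749 CPM in control cells against 9736, 10357 and 9750 CPM in siRNA_ANK. Its share of all counts was 0.847% to 0.895% in control libraries and 0.953% to 1.01% in siRNA_ANK libraries, and it ranked 8th and 7th by mean CPM among all genes tested. The groups did not overlap, and the rise was 1.16-fold (log2 fold change 0.21 ± 0.05, edgeR adjusted p = 0.00311). Beside the 3 TEAD motifs in the window of Ccn2 stands this 1.16-fold rise, and beside the single copies of Ccn1 and Amotl2 stand rises of 2.31-fold and 2.35-fold. Crim1 and Amotl1, with no copy in their windows, were 1.89-fold higher and 1.42-fold lower. A relation between the motif and the change was not tested.

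Ccn3 (formerly Nov) encodes a CCN protein known to restrain smooth muscle growth, and it lies on chromosome 7 at 86094000 to 86101019, plus strand. It measured 325, 440 and 312 CPM in control cells, against 519, 562 and 447 CPM in siRNA_ANK cells. The highest control, replicate 2, was just below the lowest siRNA_ANK library, replicate 3. Ccn3 rose 1.42-fold (log2 fold change 0.50 ± 0.15, edgeR adjusted p = 0.0395). This call was lost when any 1 of the libraries except control replicate 2 was left out (adjusted p = 0.0718 to 0.121), and with no filter on low counts (adjusted p = 0.130). With the replicate number as a block the edgeR adjusted p was 4.33e-06. Without control replicate 2 and siRNA_ANK replicate 3, the libraries in which Ccn3 lay nearest to the other group, its log2 fold change was 0.76 in place of 0.50. That choice was made after seeing the data and favours a larger change. The summed smooth muscle markers were also highest in replicate 2 among the controls (3608 against 2845 and 2595 CPM) and lowest in replicate 3 among the siRNA_ANK libraries (5155 against 5761 and 6173 CPM); the part of this in the values of Ccn3 was not tested.

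Ccn5 (formerly Wisp2), which lacks the C-terminal cystine knot domain of the other CCN proteins and is known as a growth-arrest gene of smooth muscle, rose slightly. It lies on chromosome 3 at 152491220 to 152502636, plus strand. Its levels were 562, 567 and 562 CPM in control cells, against 670, 692 and 642 CPM in siRNA_ANK cells. The controls were almost identical (coefficient of variation 0.498%), and every siRNA_ANK value was above them. The rise was 1.19-fold (log2 fold change 0.25 ± 0.05, edgeR adjusted p = 0.00154).

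Ccn4 (formerly Wisp1), a WNT-responsive CCN protein, was the CCN gene that fell. It lies on chromosome 7 at 98645182 to 98677248, plus strand, the same chromosome as Ccn3, and measured 353, 331 and 341 CPM in control cells, against 246, 256 and 249 CPM in siRNA_ANK cells. All siRNA_ANK values were below all control values, with little spread in either group. The level was 1.36-fold lower (log2 fold change -0.45 ± 0.05, edgeR adjusted p = 1.14e-05). Ccn6, the remaining gene of the family and not one of the 10, had 5 counts in siRNA_ANK replicate 1 and none in any other library, and was not tested.

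Per kb of gene length, which allows levels to be compared between genes, Ccn2 supplied most of the CCN transcripts in every library. Its share of the summed per-length counts of Ccn1 to Ccn6 was 81.6%, 78.5% and 82.1% in the controls and 77.1%, 77.3% and 77.7% in siRNA_ANK. The share of Ccn1 was 3.27% ± 0.744 in the controls and 6.27% ± 0.445 in siRNA_ANK (SD, n = 3), that of Ccn3 6.41% ± 1.24 and 7.52% ± 0.652, that of Ccn5 8.07% ± 0.0259 and 7.93% ± 0.148, and that of Ccn4 1.52% ± 0.0540 and 0.921% ± 0.0179. The shares of Ccn1, Ccn2 and Ccn4 did not overlap between the groups, whereas those of Ccn3 and Ccn5 did. Because these are shares of one sum, a higher share of one gene lowers the others. Summed over the family, control libraries held 10130 ± 65.8 CPM and siRNA_ANK libraries 11990 ± 422 CPM (SD, n = 3), 1.18-fold more.

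**Figure D2:**
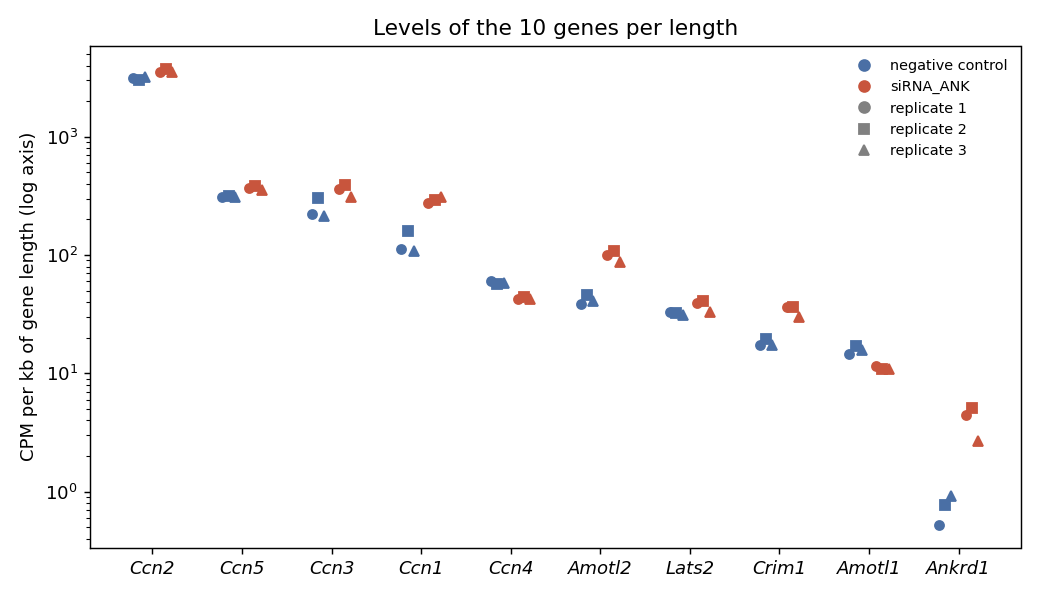
Level of the 10 genes in CPM per kb of gene length on a log axis, in the order of their control means, with 1 point per library (blue, negative control; red, siRNA_ANK). Ccn2 lies at 3044 to 3759 CPM per kb and Ankrd1 at 0.524 to 5.07; Ccn1 reaches the range of Ccn3 in siRNA_ANK.

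In the controls the order of mean level per length was Ccn2 (3122 CPM per kb), Ccn5 (312), Ccn3 (248), Ccn1 (127), Ccn4 (58.7), Amotl2 (41.8), Lats2 (32.2), Crim1 (18.2), Amotl1 (15.8) and Ankrd1 (0.735). Neighbours in this order did not overlap between their 3 control values, although Crim1 (lowest 17.4) and Amotl1 (highest 17.2) nearly met. In siRNA_ANK Amotl2, at 98.3 ± 10.2 CPM per kb (SD, n = 3), stood above Ccn4, at 43.0 ± 0.915. Ccn5, Ccn3 and Ccn1 came close together at 370, 352 and 292 CPM per kb. There the values of Ccn5 and Ccn3 overlapped, those of Ccn3 (lowest 308.6) and Ccn1 (highest 308.8) met, and those of Lats2 and Crim1 overlapped.

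The feedback inhibitors of YAP did not move alike. Amotl2 encodes an angiomotin that binds YAP and links it to junctions and actin, and it is itself a YAP target. It lies on chromosome 8 at 103302992 to 103318910, plus strand. It measured 148, 175 and 157 CPM in control cells, against 385, 411 and 334 CPM in siRNA_ANK cells. The lowest siRNA_ANK library was far above the highest control. The rise was 2.35-fold (log2 fold change 1.23 ± 0.08, edgeR adjusted p = 2.09e-07).

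Amotl1, the paralogue of Amotl2 with a like role in binding YAP, fell. It lies on the same chromosome at 11353674 to 11467573, minus strand, and measured 57.9, 67.9 and 62.0 CPM in control cells, against 45.7, 43.4 and 43.2 CPM in siRNA_ANK cells. No siRNA_ANK library reached the lowest control. The level was 1.42-fold lower (log2 fold change -0.51 ± 0.07, edgeR adjusted p = 6.43e-05).

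Lats2, the kinase that phosphorylates YAP and TAZ and is induced by them, lies on chromosome 15 at 31825092 to 31877220, minus strand. It measured 166, 160 and 155 CPM in control cells, against 195, 203 and 165 CPM in siRNA_ANK cells. The groups overlapped, because siRNA_ANK replicate 3 was within the control range. The log2 fold change was 0.23 ± 0.07 (edgeR adjusted p = 0.0194), and the call was lost without control replicate 2 or 3 or without siRNA_ANK replicate 1 or 2 (adjusted p = 0.0524 to 0.0966). Without siRNA_ANK replicate 3 it was 0.31 and past the threshold.

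Of the other targets, Ankrd1 had the largest fold change of the 10 genes from the lowest level. It encodes a stretch-responsive ankyrin repeat protein of muscle that acts in the sarcomere and the nucleus, and despite its name it is not a member of the ankyrin family of membrane adaptors. The gene lies on chromosome 1 at 233815851 to 233834919, minus strand. It had 23, 33 and 36 counts in control cells (1.29, 1.90 and 2.25 CPM) and 182, 209 and 104 counts in siRNA_ANK (10.9, 12.5 and 6.58 CPM). Every siRNA_ANK library was above every control, but replicate 3 was well below the other siRNA_ANK libraries. The rise was 5.51-fold (log2 fold change 2.47 ± 0.27, edgeR adjusted p = 1.72e-05), the 95th largest change in size among all genes tested.

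Crim1, a transmembrane protein with cysteine-rich repeats that binds bone morphogenetic proteins, lies on chromosome 6 at 16697829 to 16870259, minus strand. It measured 71.2, 79.9 and 70.9 CPM in control cells, against 148, 150 and 121 CPM in siRNA_ANK cells. The groups were well apart, with siRNA_ANK replicate 3 again the nearest to the controls. The rise was 1.89-fold (log2 fold change 0.92 ± 0.08, edgeR adjusted p = 2.06e-06).

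Ratios of raw counts within a library do not depend on scaling, and 4 were computed after the values were seen. Amotl2 had 2.56, 2.58 and 2.52 counts per count of Amotl1 in the controls and 8.42, 9.47 and 7.73 in siRNA_ANK. Ccn1 had 0.0271, 0.0402 and 0.0260 counts per count of Ccn2 in the controls and 0.0600, 0.0589 and 0.0666 in siRNA_ANK. Both ratios were apart between the groups, 3.34-fold and 1.99-fold higher in siRNA_ANK. The ratio of Ccn5 to Ccn4 was 1.65 ± 0.0600 in the controls and 2.67 ± 0.0803 in siRNA_ANK (SD, n = 3). That of Wwtr1, which encodes TAZ, to Yap1 was 0.950 ± 0.0888 and 1.32 ± 0.0498. Each ratio gave p = 0.1 in a two-sided exact permutation test, also after Benjamini-Hochberg adjustment over the 4, which is the smallest p that 3 against 3 libraries allow. Because the pairs were chosen with the values in view, this p gives the ratios no support, and they are descriptions only.

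**Figure D3:**
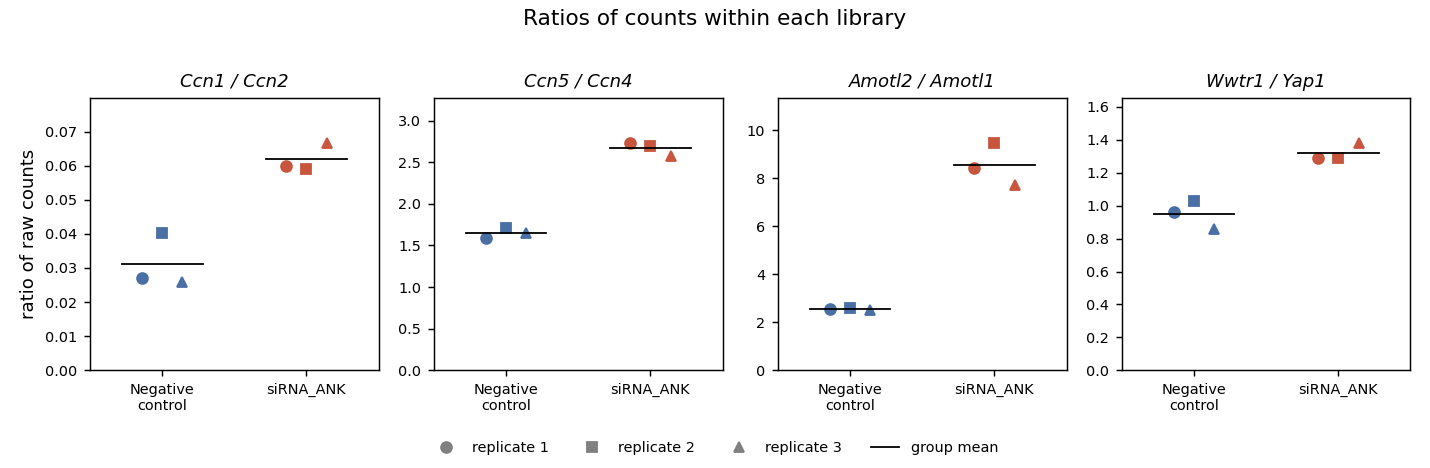
Ratios of raw counts of gene pairs within each library on linear axes that start at 0; point shapes are the replicate numbers and bars are group means of 3 libraries. The ratio of Amotl2 to Amotl1 lies between 2.52 and 2.58 in the controls and between 7.73 and 9.47 in siRNA_ANK.

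The wider Hippo pathway was described with a list of 30 genes for the kinases, adaptors, coactivators, TEAD factors and their cofactors. Of these 28 were found by symbol and 26 were tested. In siRNA_ANK 12 rose and 4 fell, so that 61.5% passed, against 40.1% of all genes, and the median of their log2 fold changes was 0.17. Both this list and that of further targets below were chosen with earlier results known, so their shares are descriptions only. Vgll2 had no count and Wwc1 had 1 to 17 counts a library, and neither was tested; Vgll1 and Amot were not analysed here. The largest change was that of Vgll3, a cofactor that binds TEAD factors, from 17.3, 20.7 and 15.5 CPM to 81.8, 90.8 and 71.7 CPM (log2 fold change 2.19 ± 0.11, edgeR adjusted p = 4.30e-08).

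The coactivators themselves differed in the test. Yap1 measured 153, 145 and 162 CPM in control cells, against 157, 167 and 149 CPM in siRNA_ANK cells, overlapping throughout (log2 fold change 0.04 ± 0.06, edgeR adjusted p = 0.624). Wwtr1 measured 147, 149 and 138 CPM in control cells, against 203, 215 and 205 CPM in siRNA_ANK cells (log2 fold change 0.52 ± 0.05, edgeR adjusted p = 4.43e-06). Among the TEAD genes that encode the DNA-binding partners, Tead1, Tead3 and Tead4 also rose. The log2 fold change was 0.42 ± 0.09 for Tead1, 0.60 ± 0.09 for Tead3 and 0.71 ± 0.12 for Tead4 (edgeR adjusted p = 0.00195, 0.000104 and 0.000239), whereas Tead2, at 1.08 to 4.31 CPM, did not pass (adjusted p = 0.315). The estimate for Tead2 hung on single libraries. Without siRNA_ANK replicate 3, its lowest library, the log2 fold change of Tead2 was 0.92 in place of 0.55 and passed (adjusted p = 0.00911). Without siRNA_ANK replicate 2, its highest library, it was 0.024 and did not pass (adjusted p = 0.969).

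On the inhibitory side, Mob1b, an activator of the LATS kinases, fell from 63.2, 57.4 and 58.0 CPM to 41.8, 42.3 and 43.7 CPM (log2 fold change -0.48 ± 0.07, edgeR adjusted p = 4.89e-05). The kinase gene Taok3, which acts upstream in the cascade, and Limd1, a LIM protein that restrains LATS, fell by 0.45 and 0.42 on the log2 scale. Frmd6, an upstream scaffold chosen after its values were seen, fell by 0.30. Ajuba, another LIM protein that restrains LATS, rose by 0.37 on the log2 scale (edgeR adjusted p = 0.000508). Lats1 and Nf2, also chosen after their values were seen, did not pass (log2 fold changes 0.09 and -0.07, edgeR adjusted p = 0.226 and 0.409). The falls in this list include both activators and inhibitors of LATS.

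**Figure D4:**
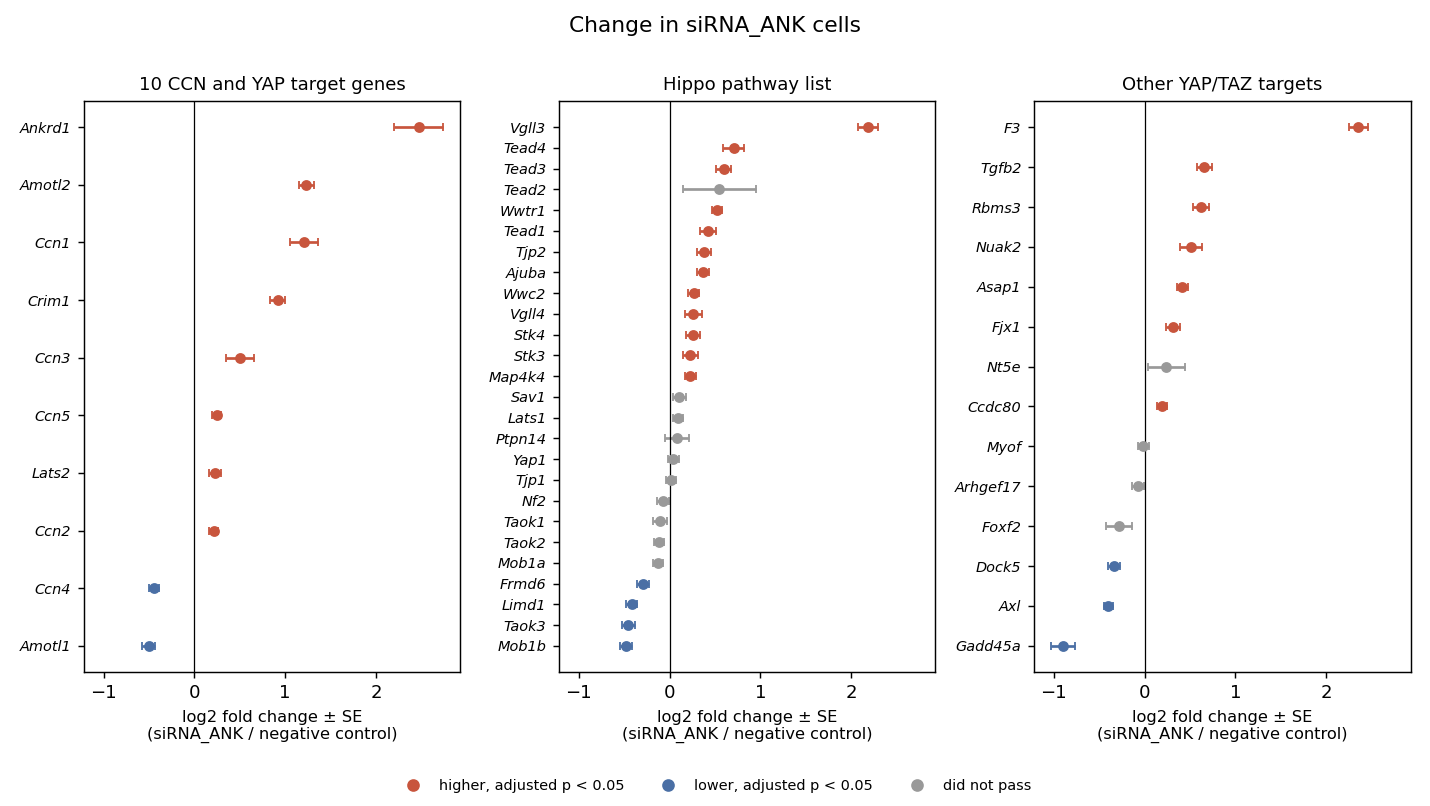
Log2 fold change of siRNA_ANK over negative control with its SE from the edgeR fit to 6 libraries, for the 10 genes (left), the 26 tested Hippo pathway genes (middle) and the 14 tested other YAP/TAZ targets (right); red and blue mark genes past the threshold, grey those that did not pass. The values run from -0.51 to 2.47, from -0.48 to 2.19 and from -0.89 to 2.35, and each panel has genes past the threshold on both sides of 0.

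Ptpn14, a gene of a known YAP/TAZ target signature, was counted in the Hippo list and did not pass (log2 fold change 0.08, edgeR adjusted p = 0.669). The 15 genes of this signature that were neither members nor in the Hippo list were all found, and 14 were tested. Of these 7 rose and 3 fell, 71.4% of them beside 40.1% of all genes tested, the median of the log2 fold changes was 0.22, and Igfbp3, with 3 to 15 counts a library, was not tested. F3, the tissue factor that starts coagulation, had the largest rise (log2 fold change 2.35 ± 0.10, edgeR adjusted p = 6.80e-09). Tgfb2, a TGF-beta ligand, rose from 281, 321 and 270 CPM to 481, 494 and 402 CPM (log2 fold change 0.66 ± 0.08, edgeR adjusted p = 8.02e-05). The RNA-binding protein gene Rbms3, Asap1, a regulator of ARF proteins and focal adhesions, and Fjx1 rose by 0.62, 0.42 and 0.32 on the log2 scale.

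The targets that fell were Gadd45a, a stress and growth-arrest gene, the receptor tyrosine kinase gene Axl and Dock5, an activator of RAC. Gadd45a measured 370, 342 and 383 CPM in control cells, against 188, 163 and 239 CPM in siRNA_ANK cells (log2 fold change -0.89 ± 0.13, edgeR adjusted p = 0.00147). Axl measured 477, 468 and 479 CPM in control cells, against 364, 343 and 373 CPM in siRNA_ANK cells (log2 fold change -0.40 ± 0.05, edgeR adjusted p = 3.48e-05). For Dock5 the log2 fold change was -0.34 ± 0.07. Myof, Foxf2, Nt5e and Arhgef17, named after their values were seen, did not pass. Genes of the signature stood on both sides of 0, as the 10 genes did.

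The genes whose profile over the 6 libraries was nearest to that of Ccn1 were Nr4a1, an immediate early nuclear receptor, Pspc1, a protein of nuclear paraspeckles, and Pdlim3, an actin-associated LIM protein. Likeness was the Euclidean distance between log2 CPM profiles centred on the control mean, over genes of at least 5 CPM on average, and was 0.228, 0.237 and 0.255 for these genes. The log2 fold changes were 1.22, 1.25 and 1.15, beside 1.21 for Ccn1. Nearest to Ccn2 were Pgam5, a mitochondrial phosphatase, Mmp2, a gelatinase, and Tmed4, a cargo receptor of the early secretory route, at distances of 0.0364, 0.0482 and 0.0642. These profiles rest on 2 groups of 3 libraries, so genes with a like fold change are near by construction.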

How the data were processed

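RNA sequencing of cultured rat vascular smooth muscle gave 6 libraries. The deposited files hold whole-number counts per gene, not normalized, 1 file per library. The tools named per the submitters' processing notes are featureCounts 1.5.0-p3 and DESeq2, with mRatBN7.2 as genome build. For the aligner and the strand setting, the sources used here give nothing; no other gene in the files overlaps any of the 10. The members and lists were chosen with earlier results of these data known.

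The fit used edgeR 4.0.16 under R 4.3.3. filterByExpr (minimum count 10, minimum total 15) left 13016 genes, TMM factors were 0.979 to 1.02, and groups were compared by the robust quasi-likelihood test (two-sided) and Benjamini-Hochberg adjustment over all genes tested and calls at an adjusted p under 0.05. The SE is the log2 fold change over the square root of F. At these depths 1 count is worth at most 0.0633 CPM. Named genes were the 10 members, Ankh, Ccn6, Yap1, Wwtr1 and the TEAD genes, up to 8 called genes per list by smallest adjusted p, and the 3 nearest profiles of Ccn1 and Ccn2. Alternatives were DESeq2 1.42.0, limma-voom (limma 3.58.1), other size factors and filters, leaving out libraries, a replicate block, and a test against a 1.2-fold change. No pair of replicates agreed within sampling noise (chi-square per degree of freedom 2.83 to 12.3).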

Additional observations from a re-analysis of the deposited data

How the results depend on the processing

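The direction of all 10 genes and of Ankh held in all 16 alternatives run. Ccn1, Ccn4, Amotl1, Amotl2, Ankrd1 and Crim1 passed the threshold in each of them. In the test against a fold of 1.2, the log2 fold changes of Ccn2 (0.21, adjusted p = 1), Ccn3 (0.50, adjusted p = 0.158), Ccn5 (0.25, adjusted p = 0.751) and Lats2 (0.23, adjusted p = 0.825) did not pass. That test called 4 of the 10 genes higher and 2 lower, 4 and 3 of the 26 tested Hippo genes, and 4 and 2 of the 14 tested further targets. Over all 13016 genes tested it called 1335 higher and 1142 lower. With no filter on low counts Ccn3 was 0.50 (adjusted p = 0.130); the cause was not tested. Leaving out 1 library at a time, the log2 fold change was 0.41 to 0.67 for Ccn3 and 0.17 to 0.31 for Lats2. In these fits 6 to 7 of the 10 genes were higher and 2 lower. Deviations of same-numbered libraries correlated at -0.03, 0.08 and 0.05, and not every library correlated best with its own number. With 3 libraries in each group, these values cannot show whether the replicate numbers pair the libraries. With the number as a replicate block, 2579 genes were higher and 2631 lower in place of 2594 and 2629, and 8 and 2 of the 10 genes. With the block the edgeR adjusted p was 4.33e-06 in place of 0.0395 for Ccn3 and 8.21e-11 in place of 2.09e-07 for Amotl2. It was slightly larger for Ccn2 (0.00327 in place of 0.00311) and Ccn5 (0.00156 in place of 0.00154). Without control replicate 2 and siRNA_ANK replicate 3, and with scaling that leaves out the 20 most abundant genes, both chosen after seeing the data, 8 and 2 of the 10 genes were again called. Control replicate 2 and siRNA_ANK replicate 3 most often lay nearest to the other group, so leaving them out favours larger changes. For 3 genes that did not pass, the sign of the log2 fold change turned close to 0. Leaving out 1 library, it was -0.0025 to 0.081 for Yap1, -0.052 to 0.036 for Myof and -0.137 to 0.00092 for Arhgef17; it was 0.0033 for Myof with upper quartile factors, and 0.065 for Myof and 0.017 for Arhgef17 without both libraries. Without 1 library, 8 to 13 of the Hippo list were higher and 4 to 5 lower, beside 1991 to 2874 and 2062 to 2976 of all genes. Depth limits Ankrd1 most, with 23 to 36 counts in the controls.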

Other observations

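The spread within a group differed widely between the 10 genes. In the controls the coefficient of variation was 26.6% for Ankrd1, 23.0% for Ccn1 and 19.6% for Ccn3, against 2.22% for Ccn2 and 0.498% for Ccn5. In siRNA_ANK it was 30.7% for Ankrd1, 11.5% for Crim1, 11.4% for Ccn3 and 5.30% for Ccn1.

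For 6 of the 10 genes (Ccn3, Ccn5, Lats2, Amotl2, Ankrd1 and Crim1) the siRNA_ANK library nearest to the controls was replicate 3, which also held the most Ankh of its group. Over all genes that passed the test, replicate 3 was the nearest for 60.6%, so the 10 genes did as the others did. Control replicate 2 was the nearest to siRNA_ANK for 6 of the 10 genes and for 56.2% of all genes that passed. Ccn1 was an exception among the siRNA_ANK libraries, with its highest value, 649 CPM, in replicate 3. Amotl1, which fell, was also farthest from the controls there, at 43.2 CPM, though barely beyond replicate 2 at 43.4 CPM.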
